A study of Ovis aries with 3 samples.

Results

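A set of 8 genes of the developing kidney and genital tract were followed here through 3 single-cell libraries of whole sheep embryos. They were *EMX2*, *PAX2*, *PAX8*, *LHX1*, *WT1*, *OSR1* and *SIM1*, which encode transcription factors, and *GDNF*, which encodes a secreted growth factor. They were chosen by name, and 8 of 8 were present among the 26478 genes of the count tables. Their levels were described in each library, in cells with RNA of the kidney epithelial genes *CDH16* or *DCDC2*, in clusters built without these genes, in erythroid cells and in neural cells.

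The kidney and the genital ducts arise from the intermediate mesoderm, which forms an epithelial nephric duct, the tubules and glomeruli of a transient mesonephros, and the mesenchyme from which the permanent kidney later grows. *LHX1*, *PAX2* and *PAX8* act early in the duct and its tubules, and *EMX2* is required in the same epithelium. *OSR1* marks the intermediate and lateral plate mesoderm, *WT1* is used by mesenchyme, coelomic epithelium and podocytes, and *GDNF* is the mesenchymal ligand that draws the ureteric bud out of the duct through its receptor *RET*. *SIM1* is best known from the hypothalamus and from kidney tubules.

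The study set short-tailed sheep against a breed with a longer tail to follow how the tail forms, with 1 library for each group. E19 HSTS was a Hulunbuir short-tailed embryo at day 19, from parents genotyped as homozygous for a missense mutation of the mesoderm gene *T*. E19 HS was a Hu sheep embryo of day 19 and E16 HS of day 16, both from parents with the wild-type allele of *T*. The E16 HS label names 1 embryo where the methods name 3, and this was not settled. Whole embryos were digested with collagenase, and the cells were then taken through a buffer that lyses red blood cells, a step that bears on the erythroid cells described below. Breed and *T* genotype cannot be told apart here.

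Cells were kept with 200 to 6000 genes, 1000 to 30000 unique molecular identifiers (UMIs, each standing for 1 captured RNA molecule) and at most 10% mitochondrial UMIs. Wherever 3 values are given in a row below, they stand for E19 HSTS first, then E19 HS, then E16 HS. The filter left 9618, 10629 and 11329 cells, with median depths of 8675, 6900 and 9046 UMIs per cell. Pairs of libraries shared 31 to 37 cell barcodes, too few to touch the values below. Levels are CPM, the UMIs of a gene summed over the cells of a set and given for every 1000000 UMIs of that set, with an exact Poisson interval at 95%, and ratios carry an exact interval. No group had a replicate library, so no test was made, and all intervals cover counting error only. A gene without a UMI in a whole library could still reach 0.0265 to 0.0338 CPM.

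At least 1 of the 8 genes was found in 1510, 1574 and 1408 cells, or 15.7%, 14.8% and 12.4% of the cells. *EMX2* stood at 18.1 CPM (17.3 to 19.0) in E19 HSTS, 18.1 CPM (17.2 to 19.0) in E19 HS and 9.11 CPM (8.56 to 9.68) in E16 HS. *LHX1* stood at 4.12 CPM (3.73 to 4.54), 3.53 CPM (3.15 to 3.94) and 4.50 CPM (4.11 to 4.90) in that order of libraries. Thus *EMX2* was low in the day 16 library, while the *LHX1* interval of day 16 lay above that of E19 HS and overlapped that of E19 HSTS.

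*PAX8* was measured at 4.41 CPM (4.01 to 4.84), 5.30 CPM (4.83 to 5.80) and 3.13 CPM (2.81 to 3.47). Its close relative *PAX2* was sparse, with 27, 30 and 29 UMIs in the 3 libraries, or 0.271, 0.338 and 0.256 CPM. *SIM1* was sparser still, with 24, 19 and 6 UMIs. The *PAX2* intervals of the 3 libraries overlapped, whereas *PAX8* was lowest in E16 HS.

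Among the genes of the mesenchyme and coelom, *WT1* stood at 1.49 CPM (1.26 to 1.75), 2.08 CPM (1.80 to 2.41) and 2.54 CPM (2.25 to 2.85). *OSR1* stood at 0.351 CPM (0.245 to 0.489), 0.507 CPM (0.370 to 0.679) and 1.49 CPM (1.28 to 1.74). *GDNF* gave 49, 34 and 61 UMIs, or 0.492, 0.383 and 0.539 CPM, with overlapping intervals. *OSR1* was thus higher at day 16 than in both day 19 libraries, and *WT1* was lowest in E19 HSTS.

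**Figure D1:**
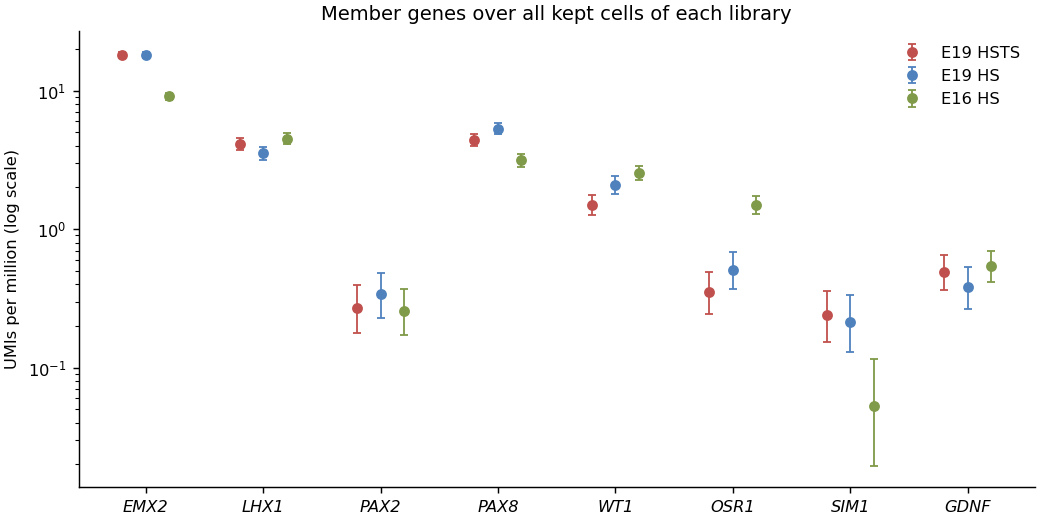
Level of each of the 8 genes in the kept cells of the 3 libraries, in CPM on a log axis; points are the library values (red E19 HSTS, blue E19 HS, green E16 HS) and bars the exact 95% Poisson intervals. *EMX2* stands at 9.11 at day 16 against 18.1 in both day 19 libraries, while *OSR1* stands at 1.49 at day 16 against 0.351 and 0.507 at day 19.

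Between the breeds at day 19, 0 of the 8 genes differed by 2-fold or more with an interval that left out 1, where 4.96% of all 13172 genes with at least 20 UMIs did. The E19 HSTS to E19 HS ratio was 1.00 (0.934 to 1.07) for *EMX2*, 0.832 (0.729 to 0.950) for *PAX8* and 1.17 (1.01 to 1.36) for *LHX1*. *WT1* had the lowest ratio among those with an interval clear of 1, at 0.713 (0.570 to 0.890). The intervals of *PAX2*, *OSR1*, *SIM1* and *GDNF* held 1, and the *SIM1* interval ran from 0.591 to 2.17. Cells with the erythroid genes *AHSP* and *ALAS2*, defined below, made up 25.5% of E19 HSTS and 12.3% of E19 HS. Without them the ratios became 1.41 for *EMX2* and for *LHX1*, 1.06 for *PAX8* and 0.937 for *WT1*. In bulk sums of this kind, fewer cells of a type and less RNA per cell cannot be told apart.

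Between day 16 and day 19 in Hu sheep, 2 of the 8 genes passed the same rule, against 15.4% of 13442 genes. *OSR1* was 2.94-fold (2.11 to 4.19) higher in E16 HS. *SIM1* was 4.04-fold lower, from 6 against 19 UMIs, too few for the filter applied to the other genes. *EMX2* lay at the edge of the rule, 1.99-fold lower with a ratio of 0.503 (0.464 to 0.544), and the ratio was 0.435 under TMM scaling, which made the count 3. *PAX8* was 1.69-fold lower, and *LHX1* and *WT1* were higher with ratios of 1.27 (1.11 to 1.47) and 1.22 (1.01 to 1.47). The median of all genes lay at 0.22 on the log2 scale in this comparison and at -0.05 between the breeds.

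*CDH16* encodes a cadherin of kidney epithelium and *DCDC2* a doublecortin-domain protein of ciliated epithelia such as renal tubules and bile ducts. At least 1 UMI of either was found in 333 (3.46%), 302 (2.84%) and 79 cells (0.697%). *CDH16* was 37.5-fold and *DCDC2* 12.4-fold lower in E16 HS than in E19 HS over all cells. Only 2 cells of E16 HS held both genes, against 176 and 152 at day 19, so that the pair defined a far smaller set at day 16.

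Member genes were frequent in these cells. At least 1 of the 8 was found in 266, 227 and 31 of them (79.9%, 75.2% and 39.2%), and at least 2 in 45.3%, 32.5% and 22.8%. Among all other cells 1.39%, 1.42% and 2.07% held at least 2. *EMX2* and *LHX1* occurred together in 114, 73 and 14 of the cells with *CDH16* or *DCDC2*.

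*EMX2* stood at 158 CPM in these cells against 11.7 CPM in all others in E19 HSTS, a ratio of 13.6 (12.3 to 14.9). In E19 HS it stood at 133 against 13.7 CPM (9.69-fold, 8.66 to 10.8), and in E16 HS at 59.0 against 8.62 CPM (6.85-fold, 5.24 to 8.81). It was found in 73.6%, 61.6% and 26.6% of the cells, and in 29.8%, 35.0% and 7.59% once each cell was thinned to 3000 UMIs, which left out 8, 8 and 0 of them. *EMX2* was therefore raised in all 3 libraries, and the ratio at day 16 lay below that of E19 HSTS.

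The duct regulator *LHX1* was raised further. Its level was 53.0 against 1.87 CPM in E19 HSTS (28.3-fold, 23.2 to 34.6), 47.2 against 1.86 CPM in E19 HS (25.4-fold, 20.2 to 31.9) and 38.1 against 4.17 CPM in E16 HS (9.16-fold, 6.51 to 12.6). The level inside the set differed less between days than the level outside it.

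*PAX2* gave 15 UMIs in these cells of E19 HSTS, 3.42 against 0.126 CPM (27.2-fold, 11.9 to 63.6). In E19 HS it gave 9 UMIs, 2.76 against 0.246 CPM (11.2-fold, 4.53 to 25.6), and in E16 HS none, while 29 UMIs lay in other cells. *SIM1* was found in the same order, with 14 UMIs in E19 HSTS (30.4-fold, 12.6 to 76.6), 4 UMIs in E19 HS (6.99-fold, 1.69 to 22.0) and none in E16 HS. Both genes thus stood at a higher level in the *CDH16* or *DCDC2* cells of day 19 than in other cells. In E19 HS these cells still held only 30.0% of the *PAX2* UMIs and 21.1% of the *SIM1* UMIs. In those of day 16 neither gene was detected, with an upper limit of 3.35 CPM for each. That limit lay above the E19 HS levels of 2.76 CPM for *PAX2* and 1.23 CPM for *SIM1*, so a difference between the days was not resolved.

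*PAX8* and *WT1* had lower ratios. *PAX8* stood at 10.0 against 4.15 CPM in E19 HSTS (2.42-fold, 1.73 to 3.31), 10.7 against 5.09 CPM in E19 HS (2.11-fold, 1.45 to 2.98) and 5.45 against 3.10 CPM in E16 HS (1.76-fold, 0.640 to 3.86). *WT1* had ratios of 2.09 (1.09 to 3.70), 2.15 (1.15 to 3.70) and 2.92 (1.25 to 5.83), but after thinning the interval held 1 in each library and the E19 HSTS ratio turned to 0.768. Erythroid cells, which held little of either gene, were part of the cells outside the set. Without them the ratios at day 19 dropped below 2, to 1.43 and 1.59 for *PAX8* and to 1.22 and 1.63 for *WT1* in E19 HSTS and E19 HS.

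The mesenchymal genes gave few UMIs in these cells. *OSR1* gave 0, 1 and 0 UMIs and *GDNF* 0, 1 and 1. Their upper limits were 0.842, 1.71 and 3.35 CPM for *OSR1* and 0.842, 1.71 and 5.06 CPM for *GDNF*. In all other cells *OSR1* stood at 0.368, 0.515 and 1.51 CPM and *GDNF* at 0.515, 0.386 and 0.535 CPM. These limits lay above the levels of the other cells, so a lower level in the set was not shown. In sum, 6, 6 and 3 of the 8 genes were at least 2-fold higher with an interval above 1, against 18.3%, 13.6% and 5.62% of all genes tested. The 6 of E19 HS include *SIM1*, whose 19 UMIs fell short of the 20 asked of all genes. The median of all genes was 0.39, 0.32 and 0.22 on the log2 scale in the same comparisons. Without the erythroid cells the counts were 4, 4 and 3. Cells of the set were deeper than the others, with medians of 11980, 9830 and 13690 against 8519, 6819 and 9016 UMIs. Thinned to 3000 UMIs per cell, the counts were 4, 3 and 0, and with *CDH16* alone the count of E16 HS was 1.

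**Figure D2:**
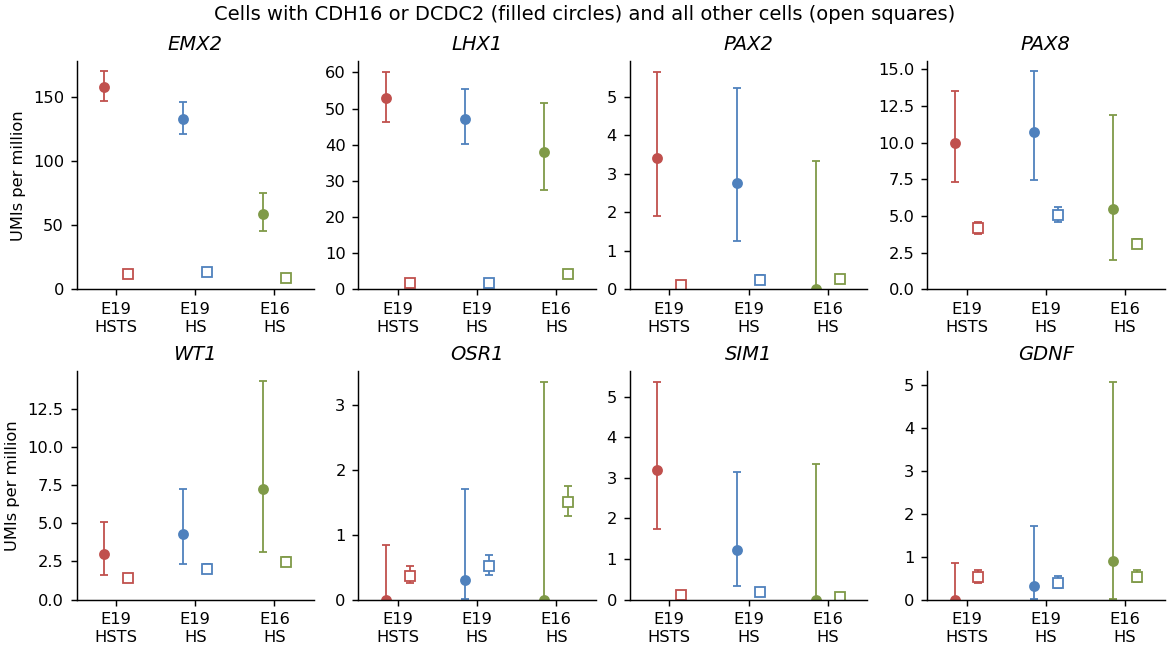
Level of each of the 8 genes, in CPM on a linear axis for each gene, in cells with at least 1 UMI of *CDH16* or *DCDC2* (filled circles) and in all other cells (open squares) of each library, with exact 95% Poisson intervals. *EMX2* and *LHX1* are higher in the filled set of all 3 libraries. *OSR1* and *GDNF* have at most 1 UMI in it, with intervals that reach above the level of the other cells.

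Other kidney genes were read in the same cells from lists by tissue. Of 22 duct and tubule genes 21 were in the table, and 14 of 18, 15 of 18 and 9 of 16 tested were at least 2-fold higher, while 0 were lower. *CALB1*, the calcium-binding calbindin of distal tubule and duct, was 270-, 323- and 26.6-fold higher, and *LRP2*, the endocytic receptor megalin, 23.5-, 19.8- and 7.01-fold. *HNF4A*, *JAG1*, *MECOM* and *EPCAM* also passed in all 3 libraries. *SLC12A1*, the salt cotransporter of the thick ascending limb, was 1205- and 141-fold higher at day 19 and had 1 UMI in these cells at day 16. *RET* showed the opposite order, with ratios of 1.43 (0.451 to 3.49), 1.14 (0.304 to 3.02) and 6.52 (2.75 to 13.2).

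The list for nephrogenic mesenchyme, with 11 of 12 genes in the table, gave another picture. Of 9 tested, 1, 1 and 0 were higher, the gene being *BMP7*, and 3, 3 and 3 were lower, with the posterior patterning genes *HOXA11* and *HOXC10* lower in all 3 libraries, where 4.70%, 4.43% and 1.78% of all genes were lower. Of the podocyte list, with 7 of 9 genes in the table, 1 of 6, 3 of 6 and 4 of 7 were higher and the forkhead gene *FOXC2* was lower in E19 HSTS. In the coelomic and gonadal ridge list, with 10 of 12 in the table, 0 of 8, 1 of 7 and 1 of 7 were higher, in both cases *ALDH1A2*, which makes retinoic acid. The shares of higher genes are to be read against the 18.3%, 13.6% and 5.62% of all genes.

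Where these cells lay was seen from clusters of all 3 libraries together, made without the 8 genes, *CDH16* and *DCDC2*. A nephric-like cluster led by *CALB1* held 197, 181 and 21 of them (59.2%, 59.9% and 26.6%). A cluster led by the phosphate transporter gene *SLC34A1* held 75, 72 and 0. In E16 HS 20 of the 79 cells lay in a neural progenitor-like cluster led by *HES5*. A hepatic-like cluster held 20, 15 and 7. The day 16 set was therefore spread over other tissues to a greater degree than those of day 19.

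For this reason the genes were also read in 3 whole clusters, grouped after their leading genes and their levels of the members had been seen. These were the *CALB1* cluster, the *SLC34A1* cluster, which carried *CUBN* and other genes of the proximal tubule, and a small cluster with the podocyte genes *NPHS1*, *PTPRO* and *PTPRQ* among its leading genes. Together they held 515, 620 and 520 cells, or 5.35%, 5.83% and 4.59%. *CDH16* or *DCDC2* was found in 53.0%, 41.9% and 4.23% of them. The *SLC34A1* cluster had 75, 73 and 0 cells and the *NPHS1* cluster 33, 72 and 136. At day 16 the 3 clusters thus still held 520 cells, nearly all of which lacked a UMI of the marker pair.

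*CDH16* stood at 136 and 118 CPM in the 3 clusters at day 19 and at 0.322 CPM at day 16, 365-fold (101 to 3018) lower in E16 HS than in E19 HS. *DCDC2* was 27.9-fold (19.7 to 40.8) lower. Part of both contrasts lay in the *SLC34A1* cluster, missing at day 16, which held 50.1% and 56.5% of all *CDH16* UMIs at day 19. In the *CALB1* cluster alone *CDH16* stood at 84.8, 63.3 and 0.422 CPM and *DCDC2* at 170, 129 and 6.74 CPM. The transcription factors differed far less between the days. *LHX1* stood at 60.0, 52.5 and 65.6 CPM, against 0.924, 0.514 and 0.953 CPM in all other cells. Of its UMIs, 78.8%, 86.3% and 80.0% lay in the 3 clusters.

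*EMX2* stood at 147, 118 and 56.4 CPM in the 3 clusters, and at 10.7, 12.0 and 6.36 CPM outside. Only 43.9%, 37.9% and 33.9% of its UMIs lay inside. It was 1.24-fold (1.12 to 1.38) higher in E19 HSTS than in E19 HS and 2.10-fold lower in E16 HS than in E19 HS, with a ratio of 0.477 (0.417 to 0.545). In the *SLC34A1* cluster it was 199 and 138 CPM in E19 HSTS and E19 HS, a ratio of 1.44 (1.15 to 1.82). In the larger *CALB1* cluster it was 140 CPM (129 to 152) and 126 CPM (115 to 138), and in the *NPHS1* cluster it rested on 8 and 11 UMIs, with overlapping intervals in both. The E16 HS level in the *CALB1* cluster was 71.0 CPM (63.6 to 79.0), below both. The *EMX2*-poor *NPHS1* cluster was also a smaller part of E19 HSTS, with 33 of 515 against 72 of 620 cells, and its part in the pooled ratio was not tested. In E16 HS it made up 136 of 520 cells, and the *EMX2*-rich *SLC34A1* cluster was missing. The part of this make-up in the pooled day ratio was not tested either.

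*WT1* ran the other way. It stood at 12.4, 21.2 and 32.9 CPM in the 3 clusters, with a ratio to E19 HS of 0.587 (0.427 to 0.803) for E19 HSTS and of 1.55 (1.22 to 1.98) for E16 HS. The *NPHS1* cluster, where *WT1* stood at 62.0, 70.5 and 58.9 CPM, made up 33 of 515, 72 of 620 and 136 of 520 cells, so its share moved with the *WT1* level, and its part in the difference was not tested. In the *CALB1* cluster alone *WT1* stood at 12.2 CPM (9.01 to 16.1), 18.5 CPM (14.4 to 23.3) and 24.9 CPM (20.6 to 29.8). The E19 HS interval overlapped both others there, while those of E19 HSTS and E16 HS did not overlap.

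*PAX2* stood at 3.90, 4.47 and 2.10 CPM in the 3 clusters, which held 77.8%, 76.7% and 44.8% of its UMIs, and was lower in E16 HS than in E19 HS with a ratio of 0.469 (0.218 to 0.965). *PAX8* stood at 14.3, 13.4 and 11.4 CPM against 3.84, 4.80 and 2.64 CPM outside, and only 17.5%, 14.7% and 20.1% of its UMIs lay inside. *PAX8* was thus raised in these clusters but mostly found elsewhere, whereas *PAX2* was mostly found inside them at day 19.

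**Figure D3:**
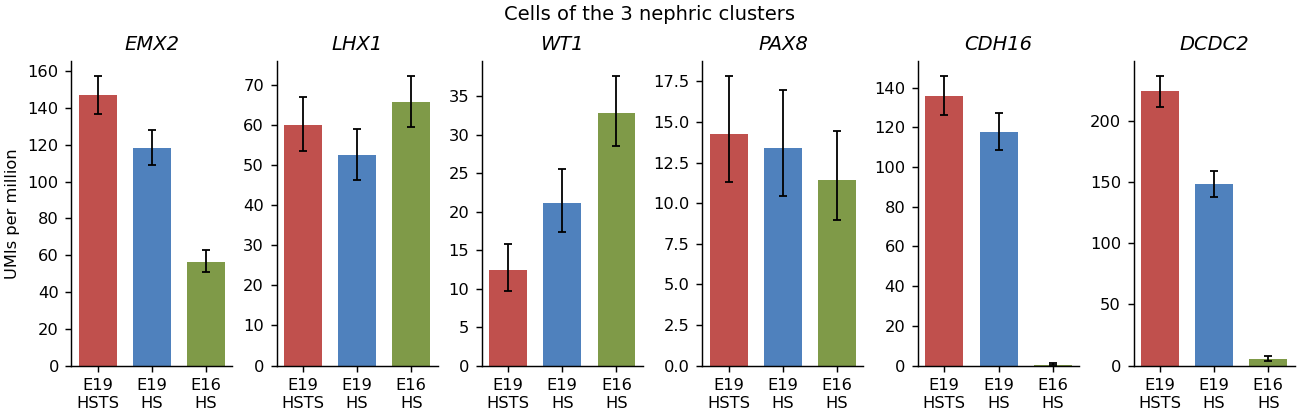
Level of *EMX2*, *LHX1*, *WT1*, *PAX8*, *CDH16* and *DCDC2* over the cells of the *CALB1*, *SLC34A1* and *NPHS1* clusters in each library, in CPM on a linear axis for each gene; bars are library values and whiskers exact 95% Poisson intervals. *LHX1* stands at 60.0, 52.5 and 65.6 while *CDH16* stands at 136, 118 and 0.322.

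The genes were shared unevenly between the cells of the 3 clusters. At least 1 of the 8 was found in 77.9%, 71.1% and 71.5% of these cells, and at least 2 in 41.2%, 30.0% and 36.3%. *LHX1* was found in 48.1%, 36.6% and 62.9% of the cells with *EMX2* and in 19.8%, 18.9% and 26.9% of those without. *WT1* was found in 4.55%, 9.25% and 25.3% of the cells with *EMX2* and in 16.4%, 19.2% and 31.7% of those without. Cells with *EMX2* thus had *LHX1* at a higher share and *WT1* at a lower share than cells without it in each library. The *WT1* shares lay closest together in E16 HS, and no intervals were computed for these shares. Deeper cells hold more of every gene, and these shares were not thinned.

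A finer clustering of the same cells, again without the 8 genes, gave 8 groups. They are named by their leading gene only, and levels are given over the 3 libraries together. The group led by *NTPCR* had a median of 1819 UMIs per cell and is left aside.

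Most day 16 cells fell in a group of their own. The *RAB3B* group had 6, 6 and 300 cells, with *EMX2* at 60.3 CPM (53.0 to 68.2), *LHX1* at 75.0 CPM (66.9 to 83.8) and *WT1* at 28.5 CPM. With nearly all of its cells from 1 library, its stage and its library cannot be told apart. In the *H2BC15* group, which was led by histone genes of dividing cells and had 139, 157 and 7 cells, *EMX2* stood at 148 CPM (135 to 162), *LHX1* at 68.8 CPM (60.1 to 78.3) and *WT1* at 11.4 CPM. The *ANKRD1* group, with 90, 130 and 15 cells, held *LHX1* at 94.1 CPM (80.9 to 109) and *EMX2* at 134 CPM (118 to 151). *PAX2* stood at 6.17 CPM in the *ANKRD1* group and at 5.10 CPM in the *H2BC15* group.

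A group led by *TJP3*, with the duct genes *CALB1*, *CLDN8* and *RET* among its leading genes, had 100, 73 and 28 cells. *EMX2* stood there at 170 CPM (154 to 188), *LHX1* at 73.5 CPM (63.0 to 85.3) and *WT1* at 0.845 CPM. *RET* was measured at 16.5 CPM and *GATA3*, another regulator of the nephric duct, at 30.8 CPM. *SIM1* gave 10 UMIs in it, or 4.22 CPM. *WT1* was thus close to absent in this group, though not in the *H2BC15* and *HOXA11* groups, where *GATA3* was also found.

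The proximal tubule genes *LRP2* and *CUBN* stood at 496 and 66.2 CPM in the *SLC5A11* group of 65, 72 and 0 cells. *EMX2* was high in it, at 163 CPM (144 to 183), while *LHX1* was 20.3 CPM (14.0 to 28.3) and *WT1* 2.98 CPM. In E19 HSTS and E19 HS *EMX2* was found in 63 of 65 and 45 of 72 of these cells. Here *EMX2* stood as high as in the duct group with overlapping intervals, whereas *LHX1* was lower.

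*WT1* was highest in the group led by *CCL2*, at 62.3 CPM, which had 34, 75 and 142 cells and carried the podocyte genes *PTPRO* at 508 CPM, *TCF21* at 512 CPM and *NPHS1* at 33.6 CPM. *EMX2* was 14.5 CPM (9.95 to 20.5) and *LHX1* 22.7 CPM (16.9 to 30.0) there. By library *EMX2* was 30.2, 25.2 and 7.74 CPM, so the pooled value leaned on the many day 16 cells. In the duct group it was 168, 197 and 135 CPM by library. The order of *EMX2* and *WT1* levels across groups was thus reversed between the duct group and this group.

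The last group, led by *HOXA11* and *HOXC10*, had 47, 75 and 5 cells. *OSR1* stood there at 14.3 CPM, with an interval that began at 7.41 CPM, *GDNF* at 8.36 CPM (3.36 to 17.2) and *WT1* at 39.4 CPM, with *EMX2* at 17.9 CPM and *LHX1* at 11.9 CPM. Genes of the nephrogenic mesenchyme were found with them, *SALL1* at 57.3 CPM, the *GDNF* regulator *EYA1* at 25.1 CPM and the integrin gene *ITGA8* at 52.6 CPM. These were not particular to the group, as they stood at 28.2, 11.1 and 29.7 CPM in the *RAB3B* group. The *RAB3B* group gave more UMIs of *OSR1* and *GDNF*, 15 and 14 against 12 and 7, at lower CPM (3.62 and 3.38), and the *GDNF* intervals of both groups overlapped. In the 5 cells of day 16 neither gene was found. In the *TJP3* group, where the receptor gene *RET* was found, the ligand *GDNF* had 0 UMIs.

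**Figure D4:**
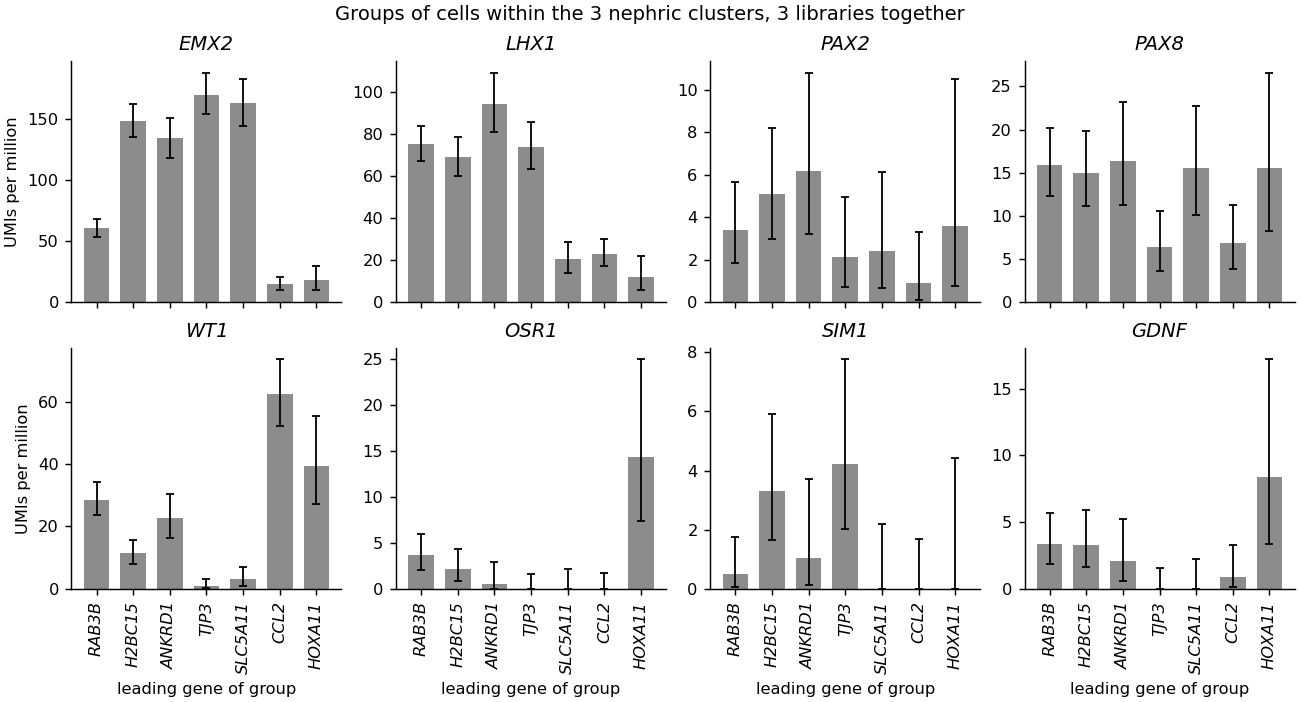
Level of each of the 8 genes in 7 groups of cells within the 3 clusters, over the libraries together, in CPM on a linear axis for each gene; bars are group values, whiskers exact 95% Poisson intervals, and each group is named by its leading gene, without the shallow *NTPCR* group. *EMX2* is highest in the *TJP3* and *SLC5A11* groups (170 and 163), *WT1* in the *CCL2* group (62.3) and *OSR1* in the *HOXA11* group (14.3).

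Outside the 3 clusters the 8 genes went separate ways. *LHX1*, which also marks classes of spinal interneurons, stood at 13.8 and 10.3 CPM in the neuron-like cluster led by *ST18* in E19 HSTS and E19 HS, from 23 and 16 UMIs. In E16 HS that cluster had 18 cells and 1 *LHX1* UMI. *WT1* was found in a mesenchyme-like cluster led by *SCG2*, at 9.95, 6.59 and 5.35 CPM, which held 30.4%, 19.5% and 9.06% of its UMIs. *GDNF* was found in the same cluster with 11, 4 and 13 UMIs, and at day 16 with 16 UMIs in a cluster of 1151 cells led by *FGF17*, *T* and *HES7*, genes of the presomitic mesoderm and tail bud.

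*OSR1* was found in different clusters at the 2 stages. In E16 HS 98 of its 169 UMIs (58.0%) lay in a cluster led by the uroplakin genes *UPK2* and *UPK3A*, of 331 cells at day 16 and of 3 and 7 cells in E19 HSTS and E19 HS. The interval of its level there ran from 16.2 to 24.4 CPM. Outside the erythroid cells and the 3 clusters, genes of the lateral plate list were found in 16.8% of the *OSR1* cells of E16 HS and in 28.7% of cells without *OSR1*, although the former were deeper. In E19 HSTS and E19 HS they were found in 52.4% and 37.1% of the *OSR1* cells and in 14.2% and 12.6% of the rest. The day 16 excess of *OSR1* over all cells thus lay mostly in a cluster that the day 19 libraries nearly lacked.

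*PAX8* was spread over many tissues. It stood at 9.27, 6.08 and 5.93 CPM in the *HES5* neural progenitor-like cluster, at 7.38, 8.98 and 5.43 CPM in a somite-like cluster led by *MEOX2*, and at 6.56, 8.21 and 7.81 CPM in a cluster led by *TP63*, a gene of surface epithelium. *EMX2* was also found in the *TP63* cluster, at 27.3 CPM in E19 HSTS and 13.5 CPM in E19 HS, and in the *SCG2* cluster at 18.8, 10.3 and 2.88 CPM. The day 19 libraries differed in both, with E19 HSTS the higher. Outside the erythroid cells and the 3 clusters, genes of the forebrain list were found in 5 of 264, 3 of 247 and 0 of 166 *EMX2* cells (1.89%, 1.21% and 0%), and in 0.234%, 0.260% and 0.148% of the shallower cells without *EMX2*. The lower bounds at day 19 were 0.618% and 0.251%. *SIM1* cells outside were 9, 9 and 3, of which 6, 3 and 1 held a somite gene, found in 26.3%, 18.9% and 18.0% of the other cells. A gene of the neural *SIM1* list was found in 2, 0 and 0 of them and in 9.37%, 7.19% and 2.64% of the others. Of the *GDNF* cells outside, 2 of 32, 1 of 24 and 8 of 39 held a gene of its receptors and kin, against 11.7%, 12.4% and 13.2% of cells without *GDNF*.

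*EMX2* RNA was also found in erythroid cells. Cells with at least 5 UMIs of *AHSP*, which encodes a chaperone of alpha globin, and at least 2 of *ALAS2*, the erythroid enzyme of haem synthesis, numbered 2448, 1305 and 1857. *EMX2* was found in 374, 388 and 315 of them (15.3%, 29.7% and 17.0%). Its level was 14.3 CPM (13.2 to 15.4) in E19 HSTS, 26.3 CPM (24.3 to 28.5) in E19 HS and 17.1 CPM (15.6 to 18.7) in E16 HS. These cells held 35.2%, 39.9% and 45.3% of all *EMX2* UMIs of their libraries, and 44.7%, 27.4% and 24.2% of the UMIs of all genes. The *EMX2* share was thus below their share of RNA in E19 HSTS and above it in E19 HS and E16 HS.

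The signal was not made of lone UMIs only. Of the erythroid cells with *EMX2*, 232, 236 and 215 had 1 UMI, 67, 88 and 65 had 2, and 75, 64 and 35 had at least 3. Erythroid cells were deep, with medians of 18072, 18210 and 14531 UMIs. After thinning to 3000 UMIs per cell *EMX2* was found in 3.68%, 6.82% and 4.51% of them. Endothelial cells, with at least 1 UMI each of *CDH5* and *PLVAP*, should lack the gene and had medians of 9383, 7821 and 8388 UMIs. *EMX2* was found in 0 of 91, 3 of 112 and 0 of 17 of them, and in 0 of each after thinning. The upper limits of these thinned shares were 3.97%, 3.39% and 19.5%. The thinned erythroid share lay above that limit in E19 HS only (5.51% to 8.33%), so thinned shares did not separate the cell types in the other libraries. In CPM without thinning, the upper limits of *EMX2* in endothelial cells were 3.94, 9.10 and 21.0. They lay below the erythroid intervals in E19 HSTS and E19 HS but not in E16 HS, with its few endothelial cells.

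RNA free in the suspension can enter every droplet, so genes of other lineages were read in the erythroid cells as a measure of it. The level in erythroid cells divided by that in all other cells was 0.672, 1.75 and 2.60 for *EMX2*. For 26, 26 and 25 genes of other lineages the median was 0.0450, 0.0408 and 0.0777. The highest was 0.318 for *C1QC*, 0.317 for *SOX10* and 1.18 for *ELAVL3*, and 0 genes of the list exceeded *EMX2* in any library. At the median ratio of the list *EMX2* would have stood at 0.955, 0.612 and 0.510 CPM. The measured ratio was thus 14.9, 43.0 and 33.5 times that median.

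Other nephric genes were low in the erythroid cells as a whole. Of these cells, 28, 5 and 3 held *CDH16* or *DCDC2*, and in E19 HSTS 22 of them held 63 *CDH16* UMIs. Whether such cells came from mixed droplets was not tested. *LHX1* stood at 1.08, 0.534 and 0.841 CPM, with ratios to other cells of 0.164, 0.115 and 0.149, and *PAX8* at 0.449, 0.246 and 0.292 CPM. The *LHX1* ratios lay above the medians of the other-lineage genes and below their highest values. *WT1* gave 3, 4 and 5 UMIs and *PAX2* 2, 0 and 4. The genes next to *EMX2* in the RefSeq gene order, *PDZD8* and *RAB11FIP2*, were lower in erythroid than in other cells in each library, *PDZD8* at 3.37, 2.88 and 8.01 CPM against 26.5, 21.4 and 27.0 CPM. Among these genes a level above that of other cells was seen for *EMX2* alone, in E19 HS and E16 HS and not in E19 HSTS.

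Within erythroid cells of day 19 the CPM of *EMX2* was higher in deeper cells. In E19 HS it was 18.5 CPM (14.5 to 23.4) in cells of 10000 to 15000 UMIs and 30.6 CPM (27.6 to 33.9) in those of at least 20000. In E19 HSTS the same ranges gave 10.2 CPM (7.87 to 13.0) and 18.9 CPM (17.1 to 20.8). In E16 HS they gave 14.7 CPM (12.3 to 17.4) and 18.3 CPM (15.1 to 21.9), with overlapping intervals. The E19 HSTS level was below that of E19 HS in both ranges.

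The erythroid level differed between the day 19 libraries, with a ratio of E19 HSTS to E19 HS of 0.542 (0.485 to 0.606). It differed in the same direction in the clusters led by *SYCP3* (0.544, 0.467 to 0.634), *MT1C* (0.425, 0.326 to 0.553) and *CDKN3* (0.481, 0.353 to 0.653), and in that led by *SNX22* the interval held 1 (0.813, 0.565 to 1.18). Of 8539 genes with at least 20 UMIs in erythroid cells, 307 (3.60%) had a ratio as low. The E16 HS to E19 HS ratio was 0.648 (0.574 to 0.732). In E16 HS 87.2% of the erythroid cells lay in a cluster led by *SRGN* that had 4 cells or none at day 19, and the median of all genes was 0.90 on the log2 scale. *EMX2* thus stood lower in the short-tailed embryo in erythroid cells, while the ratio over all cells was 1.00.

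**Figure D5:**
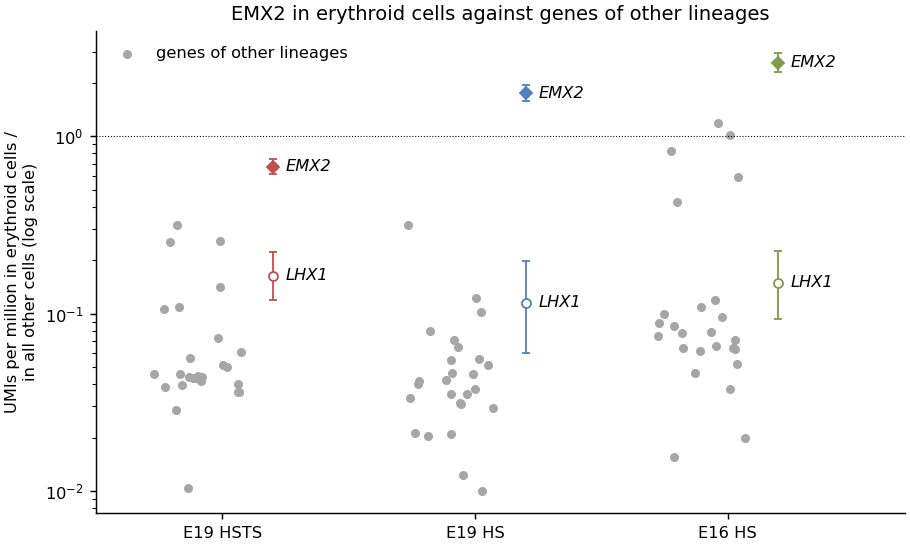
Ratio of the CPM in erythroid cells to that in all other cells of each library, on a log axis, for *EMX2* (diamonds) and *LHX1* (open circles) with exact 95% intervals and for the genes of other lineages (grey points, spread sideways at random). *EMX2* lies at 0.672, 1.75 and 2.60, above every grey point of its library, and *LHX1* at 0.164, 0.115 and 0.149.

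*PAX2* was looked for in neural cells because it is known from spinal inhibitory interneurons, the midbrain-hindbrain boundary and the optic stalk. Its UMIs were few in every cell, with at most 2 per cell in E19 HSTS and 1 in the other libraries. Progenitors, with at least 1 UMI each of *SOX2* and *PAX6*, numbered 711, 952 and 399 and held 1, 2 and 3 *PAX2* UMIs, or 0.142 CPM (0.00361 to 0.794), 0.230 CPM (0.0279 to 0.831) and 0.669 CPM (0.138 to 1.96). Neurons, with at least 2 of 5 neuronal genes, numbered 282, 363 and 153 and held 1, 2 and 1 UMIs.

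Taken over both neural sets, *PAX2* was found in 2 of 948, 3 of 1251 and 3 of 513 cells, or 0.211% (0.0256 to 0.760), 0.240% (0.0495 to 0.699) and 0.585% (0.121 to 1.70), with exact binomial intervals. Erythroid cells, read as background, had *PAX2* in 0.0817%, 0% and 0.215%, with intervals that overlapped those of the neural cells in each library and with deeper cells. In the cells of the 3 nephric clusters the share was 3.88%, 3.71% and 2.50%. A neural *PAX2* signal above background was therefore not detectable at this depth, and 76.9%, 76.7% and 44.8% of all *PAX2* cells lay in the 3 clusters.

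The few neural *PAX2* cells were sorted by the genes found with them. Of 2, 3 and 3 cells, 1, 2 and 0 held a gene of the inhibitory interneuron list. For the midbrain-hindbrain, optic and otic lists this was true of 0, 1 and 0 cells each, and for the thyroid list of 0. Outside the 3 clusters the 16 *PAX2* cells of E16 HS included 4 with a midbrain-hindbrain gene and 5 with an otic gene, lists found in 8.47% and 9.17% of all cells of that library.

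The genes most raised with each member were found by the lowest ratio over the libraries between cells with and without it, as a description. With *EMX2* these were *CALB1* (40.8, 31.5 and 13.3), *KRT25*, *LHX1* (13.9, 9.58 and 13.3), *DCDC2* (42.4, 15.5 and 7.74) and *PAX2* (7.78, 7.69 and 8.88), so that 2 of the 5 were members themselves. With *PAX2* they were *LHX1* (22.9, 14.9 and 9.67), *DLK1*, *EMX2* (6.64, 9.92 and 5.75), *JAG1* and *DACH1*. With *LHX1* they were *CALB1* (53.1, 83.5 and 33.9), *DCDC2*, *PHLDA2*, *KRT25* and *IRX6*. The 3 duct genes thus named each other or *CALB1*.

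*WT1* had other company. Its genes were *SLPI* (96.7, 100 and 45.6), *PTPRQ* (59.7, 67.6 and 34.0), *C1QA* (31.8, 30.4 and 45.9), *MAGI2* and *PTPRO* (41.2, 46.0 and 25.5), of which *PTPRQ*, *MAGI2* and *PTPRO* are known from podocytes. *PAX8* had weaker ones, *ATP6V1B1*, *KLHL14*, *FMN1*, *NRK* and *LHX1*, the last at 2.79, 2.99 and 4.49. The *OSR1* genes were *WFDC2* (6.97- and 8.01-fold at day 19), *S100A2*, *CAPN6*, *ROBO2* and *ID2*, and those of *GDNF* were *CAPN6* (15.3, 9.77 and 6.24), *DLK1*, *NR2F2*, *PCDHGC3* and *CRABP2*. *SIM1* reached enough cells in E19 HSTS only, where *CCDC151* (30.3), the tight junction gene *CLDN8* (28.6), *SLC12A1* (26.9), *RBM47* (23.4) and *IRX6* (22.3) were most raised.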

How the data were processed

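Per the labels, cells of 3 whole-embryo libraries were captured with 10x Genomics 3' chemistry, and the submitters' processing notes name Cell Ranger 6.1.2, R 4.1.2 and Seurat 4.1.1. The authors deposited filtered matrices of raw UMI counts per gene and cell, 26478 genes of which 16670 had a symbol, and gene symbols were taken from them. Kept cells held 99580051, 88733467 and 113213654 UMIs in the order of libraries used above, so that 1 UMI was 0.0100, 0.0113 and 0.00883 CPM. No doublets were removed in the main values.

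CPM were UMI counts summed over a set of cells and divided by its UMI total, with exact Poisson intervals, exact conditional intervals for ratios and Clopper-Pearson intervals for shares (Python 3.11.15, numpy 2.4.6, scipy 1.17.1, pandas 2.3.3). No ratio was given where both sets had at most 3 UMIs. A gene counted as called at 2-fold with an interval that left out 1, and all genes with at least 20 UMIs (in both cell sets together within a library, or in the higher of 2 libraries) gave the background. Cells were clustered with Seurat 5.3.0 in R 4.3.3 (2000 variable genes without the members, *CDH16* and *DCDC2*, mitochondrial share regressed out, 25 components, resolution 1.0), and the cells of the 3 nephric clusters again (15 components, resolution 0.5). A cluster was named from marker lists where at least 3 markers were detected and its leading genes did not go against the name. Named genes were the members, the genes that define a cell set, up to 5 genes most raised with each member (at least 10 UMIs, members in at least 20 cells), and list genes called in all 3 libraries with up to 4 further examples. Some list genes are not reported here. The interval code was tested on simulated data. The members and lists were chosen with earlier results of these data known. Alternatives were another cell filter, thinning to 3000 UMIs, removal of the 8% of cells with the highest Scrublet scores (scanpy 1.11.5), other cell rules, TMM (edgeR 4.0.16) or median-of-ratios scaling, and resolution 0.25. Sequences of the genes were not used here.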

Additional observations from a re-analysis of the deposited data

How the results depend on the processing

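Over the summary values, 64 of 83 alternatives stayed within 1.5 times the reported count or within its interval and 19 did not, and over single ratios 270 of 325 did. *EMX2* in erythroid cells of E19 HSTS (14.3 CPM) was 15.7 CPM over all deposited cells and 12.3 CPM after thinning, and in E19 HS (26.3 CPM) it was 28.6 CPM with at least 20 UMIs of *AHSP* and 5 of *ALAS2*. *PAX2* in progenitors of E19 HSTS, resting on 1 UMI, was 0 under the stricter cell filter (500 genes, 5% mitochondrial UMIs), after thinning, without the top Scrublet scores, with the *SOX1* or *SOX3* rule and without *CDH16* or *DCDC2* cells. In E19 HS it was 0.903 CPM after thinning and 0 with the *SOX1* or *SOX3* rule, and in E16 HS 0 under both. The share of *LHX1* UMIs in its leading cluster, 71.7%, 77.0% and 73.5%, was 78.3%, 85.3% and 79.0% at resolution 0.25. The count of members raised with *CDH16* or *DCDC2* was 3 in E19 HS after thinning, and in E16 HS 0 after thinning, 1 with *CDH16* alone and 6 in the 3 nephric clusters, an alternative chosen after seeing the data. The *WT1* ratio in those cells of E19 HSTS reversed to 0.768 after thinning. Thinning kept few UMIs of the sparse members, and the cause was otherwise not tested. No paired analysis was possible because each group was 1 library. For the same reason a difference between groups cannot be told apart from one between embryos or captures. *PAX2*, *SIM1* and *GDNF* had at most 61 UMIs per library, so that differences between libraries below about their interval width were not detectable.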

Other observations

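The complement gene *C1QA* was found beside *WT1* in the *NPHS1* cluster, at 2169 CPM (1993 to 2357) in E19 HSTS, 1199 CPM (1105 to 1300) in E19 HS and 1068 CPM (1016 to 1122) in E16 HS. Its partners *C1QB* and *C1QC*, which form the same complement subunit, had 0 UMIs there in each library. Myeloid cells, few at 10, 23 and 2, were those with at least 2 UMIs of *C1QB* and 1 of *C1QC*. In them *C1QA* stood at 2853, 3258 and 635 CPM. Their *C1QB* level of 1547, 1298 and 499 CPM followed from the rule and is no separate result. In all other cells *C1QA* was 0.534, 0.659 and 1.79 CPM.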
